A study of Mus musculus with 6 samples.

Results

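Imprinted genes were followed in mouse primary neurons after knockdown of *Pla2g4e*, which encodes an N-acyltransferase of the cytosolic phospholipase A2 family. The members were 41 imprinted genes from 20 imprinted regions, listed by symbol together with *Peg10*, out of 55357 genes counted. The list was chosen by name, and *Peg10* was placed at its head because its rise in these libraries was already known, so its values selected the list and are given below as a description without a test. A member also had to have 6 or more reads in at least 1 of the 6 libraries, which 39 of the 41 did, and 21876 genes of the whole series did. The 2 others were *Igf2*, a fetal growth factor with 0 to 0.229 CPM, and *Phlda2*, a regulator of placental growth with no read in any library. By textbook knowledge of mouse imprinting, 26 of the 41 genes are expressed from the paternal allele and 13 from the maternal allele. The other 2 (*Gnas* and *Grb10*) are expressed from an allele that depends on the promoter. Whether each gene is imprinted in these neurons was not measured.

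The cells were wild-type neurons from cortex and hippocampus of embryonic C57BL/6N mice, dissected at E18, transduced with lentivirus at DIV4 and collected at DIV14. In 3 libraries the virus carried a scrambled shRNA (shCtrl) and in 3 it carried the sh2 sequence against *Pla2g4e* (sh*Pla2g4e*), in the same amount, with the dose kept to the least that lowered the target transcript as intended. Poly(A) RNA was sequenced, and 17054717 to 23570180 reads per library were counted on genes. The labels do not say whether the 3 libraries of a group came from separate cultures, so p-values measure the spread between these libraries, which may be technical. *Pla2g4e* itself averaged 36.1 ± 1.597 CPM in shCtrl and 18.2 ± 3.87 CPM in sh*Pla2g4e* (SD, n = 3 each), without overlap between the groups (log2 fold change −0.99, SE 0.13, edgeR adjusted p = 0.000124). Because a single shRNA sequence was used, loss of the target and other actions of the guide cannot be told apart. CPM here are counts scaled to a common library size with edgeR's TMM factors. Replicates are named in the order 1, 2 and 3 throughout.

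Genomic imprinting restricts a gene to the copy inherited from the mother or the copy inherited from the father. The marks are set as DNA methylation in the germ line, are kept after fertilization by factors such as the zinc finger protein ZFP57 with TRIM28 and DNMT1, and act through control regions that often serve several neighbouring genes, so that paternally and maternally expressed genes of a region can respond to the same control element. Many imprinted genes are active in the brain, and some, such as *Ube3a* and *Grb10*, are imprinted there in a way that differs between neurons and other cells. RNA counts do not separate the alleles, so a change of level says nothing about which copy was read, and in bulk RNA fewer cells of a type and less RNA per cell cannot be told apart.

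The guide that sh2 yields is the starting point for reading any transcript other than *Pla2g4e*, because bases 2 to 8 of a small RNA (its seed) can pair with other mRNAs. The target lies in the coding sequence of *Pla2g4e*, in exon 11, at chr2:120182753-120182771 on the minus strand of GRCm38. The capitals mark the seed in the guide and its 7-base match in the target.
sh2 target: ggaagatggtgGTGGCCAa
sh2 guide: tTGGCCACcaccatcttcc
The match occurred in the annotated 3′UTR of 5 of the 31 members that have one (16.1%), against 14.6% of 15697 tested genes with a 3′UTR. Over all genes with a 3′UTR, the match lay in 44.2% of the 856 called down and in 7.72% of the 479 called up (adjusted p under 0.01). The 5 members with the match in the 3′UTR are shown with the 8 bases on either side.
Gnas: tcttcgtgGTGGCCAgcagcagc
Peg12: ggcaccacGTGGCCAcggttcat
Plagl1: caagtcaaGTGGCCAactaattg
Trappc9: aaactgtgGTGGCCAgggcacag
Zrsr1: gtaaatttGTGGCCAgtctgatc
None of these 5 genes was called up- or down-regulated in the unblocked test described below (adjusted p = 0.0332 for *Plagl1*, the lowest of them). *Peg10*, *Peg3*, *Nnat*, *Blcap* and *Nap1l5* held no such match in their 3′UTR, and *Airn* is a non-coding RNA without one. The match also lay in the coding sequence of 6 members (*Ppp1r9a*, *Dlk1*, *Magel2*, *Peg12*, *Gnas* and *Grb10*), and 19 of the 41 members held it somewhere in an annotated transcript, *Peg3*, *Sgce* and *H19* among them.

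*Peg10*, a domesticated retrotransposon gene whose Gag-like protein is needed for the placenta, was the paternally expressed gene around which the list was drawn. Its gene (ENSMUSG00000092035) lies at chr6:4747306-4760517 on the plus strand of GRCm39 and shares no exon base with another gene. The control libraries held 39.8, 38.2 and 38.2 CPM of it, and the knockdown libraries 85.6, 99.9 and 90.3 CPM. Every knockdown library stood above every control library, and the means were 38.7 ± 0.917 and 91.9 ± 7.28 CPM, a ratio of 2.37 (log2 fold change 1.25). Leaving out any library moved the log2 fold change only between 1.18 and 1.30.

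The gene next to it was not called. *Sgce*, which encodes epsilon-sarcoglycan, a membrane protein linked to myoclonus-dystonia, is also paternally expressed, lies at chr6:4674350-4747207 on the minus strand of GRCm39 and starts away from *Peg10* at the shared control region. Its levels were 25.3, 25.7 and 27.1 CPM in shCtrl and 27.2, 25.4 and 27.8 CPM in sh*Pla2g4e*, and these overlapped (log2 fold change 0.04, SE 0.10, edgeR adjusted p = 0.85). The log2 ratio of *Peg10* to *Sgce* reads within a library, which no scaling between libraries can change, was 0.65, 0.57 and 0.50 in shCtrl and 1.65, 1.97 and 1.70 in sh*Pla2g4e*. *Ppp1r9a*, the actin-binding scaffold neurabin of dendritic spines, had 185, 190 and 160 CPM in shCtrl and 166, 163 and 154 CPM in sh*Pla2g4e*, and this maternally expressed gene was not called (log2 fold change −0.15, SE 0.08, edgeR adjusted p = 0.293). *Asb4*, a subunit of ubiquitin ligases, was near the floor with 6 to 18 reads per library, at 0.29, 0.40 and 0.53 CPM in shCtrl and 0.50, 0.83 and 0.34 CPM in sh*Pla2g4e*, and was not called (edgeR adjusted p = 0.703).

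Genes further along chromosome 6 were counted from a list. Of 12 other neighbours listed around *Peg10*, 8 had enough reads and none was called in either direction by edgeR. At an unadjusted p of 0.05, 3 of the 8 were lower and 0 higher, where 12.9% of all genes were lower. Limma after voom called 0, and DESeq2 called 1 lower, where 5.55% of all genes were. With the replicate number as a term of the fit (the block described below), 2 were called down, where 9.02% of all genes were. These were *Dync1i1*, a dynein intermediate chain (log2 fold change −0.38, edgeR adjusted p = 0.0133 without and 2.79e-05 with the block, 0.00208 with block and bias-adjusted deviances), and *Casd1*, a sialic acid acetyltransferase (log2 fold change −0.34, edgeR adjusted p = 0.0258, 0.00211 and 0.00928). The list's median log2 fold change was −0.10 beside 0.03 over all genes tested. Among 11 relatives of *Peg10*, retrotransposon-derived genes such as *Rtl1* and *Ldoc1*, all of which were tested, edgeR, limma after voom and DESeq2 called none, 1 was lower at an unadjusted p of 0.05 (where 12.9% of all genes were), and the median was −0.03. That gene, *Rtl6*, was the 1 of the 11 called down with the block, where 9.02% of all genes were (log2 fold change −0.34, edgeR adjusted p = 0.0315 without and 0.00036 with the block, 0.00307 with block and bias-adjusted deviances).

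Over the 38 other tested members, 5 were called up-regulated and 0 down-regulated at an adjusted p of 0.01 by edgeR. That is 13.2% of them up, where 2.48% of all genes tested were called up and 4.0% down. The shares over all genes were not matched for level, here and throughout. Of the 21876 genes tested, 10958 had a mean log2 CPM of 3 or more. Among the members, 18 of 24 paternally and 9 of 12 maternally expressed genes did. At an unadjusted p of 0.05, 15 of the 38 were higher and 1 was lower, where 12.8% of all genes were higher and 12.9% lower. Limma after voom called 6 up and 0 down, where 2.30% of all genes were up and 4.23% down, and DESeq2 called 8 up and 0 down, where 3.14% were up and 5.55% down. The 5 were *Nnat*, *Airn*, *Nap1l5*, *Peg3* and *Blcap*, and *Blcap* alone of them is maternally expressed. The counts describe a list drawn up with results of these libraries known, and they carry no test of the list.

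**Figure D1:**
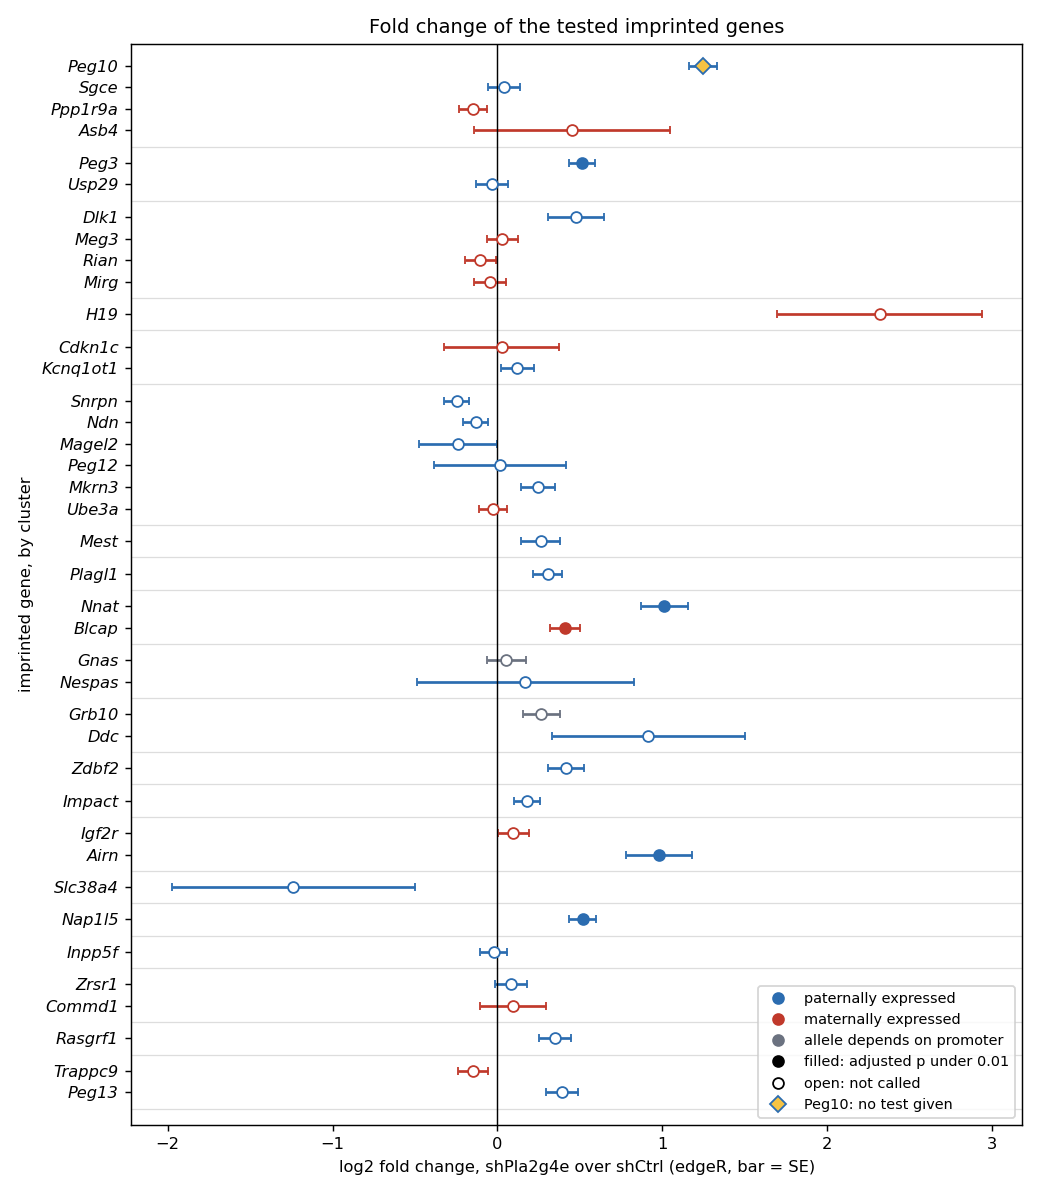
Log2 fold change (sh*Pla2g4e* over shCtrl, edgeR, bars are SE) of the 39 tested imprinted genes, grouped by imprinted region and coloured by the expressed allele. Filled circles mark the 5 members called at an adjusted p of 0.01, all to the right of 0, and the diamond marks *Peg10* at 1.25, for which no test is given.

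*Nnat*, which encodes neuronatin, a small protein of the endoplasmic reticulum membrane that modulates calcium handling in developing neurons, had the largest fitted change among the called members, close to that of *Airn*. It had 206, 210 and 213 CPM in shCtrl and 368, 567 and 334 CPM in sh*Pla2g4e*. The control libraries were close together, the groups did not overlap, and sh*Pla2g4e* replicate 2 was far above the other knockdown libraries. The log2 fold change was 1.01 (SE 0.14, edgeR adjusted p = 0.000206), and it was 0.74 without that library, where the call was kept (adjusted p = 4.62e-05). *Nnat* lies at chr2:157401998-157404442 on the plus strand of GRCm39, inside an intron of *Blcap*, a small conserved gene that was first described in bladder cancer.

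*Blcap* rose less. It had 74.0, 81.0 and 70.4 CPM in shCtrl and 92.6, 112 and 94.3 CPM in sh*Pla2g4e*, again without overlap and again highest in sh*Pla2g4e* replicate 2 (log2 fold change 0.41, SE 0.09, edgeR adjusted p = 0.00725). The call was lost with each library left out except sh*Pla2g4e* replicate 3, with an adjusted p of up to 0.0393. The log2 ratio of *Nnat* to *Blcap* reads within a library was 1.48 ± 0.113 in shCtrl and 2.05 ± 0.263 in sh*Pla2g4e*, and it was higher in every knockdown library than in every control library. The 2 genes lie on opposite strands and share few exon bases with other genes (4.76% for *Nnat* and 0% for *Blcap*).

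*Peg3*, a zinc finger transcription factor known for roles in growth and maternal behaviour, had 309, 309 and 301 CPM in shCtrl and 436, 467 and 408 CPM in sh*Pla2g4e*. The lowest knockdown library lay above the highest control library by much more than the control libraries differed among themselves (log2 fold change 0.51, SE 0.08, edgeR adjusted p = 0.000399). *Usp29*, a ubiquitin-specific protease that is paternally expressed as well, starts in the opposite direction from the same promoter region. It had 35.9, 33.8 and 29.5 CPM in shCtrl and 32.1, 32.5 and 32.3 CPM in sh*Pla2g4e*, with the knockdown libraries inside the range of the controls (log2 fold change −0.03, SE 0.10, edgeR adjusted p = 0.89, a value that turned to 0.04 with scaling by library size alone). Reads of *Usp29* could be affected by *Zim3* on the other strand, since 14.3% of its exon bases overlap other genes there and the counting took no account of strand.

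The windows of *Peg3* and *Usp29* in RefSeq's promoter table (GRCm38.p6, 250 bases before to 50 after the start) share 263 bases, and their starts are 164 bases apart. The window of *Peg3* at chr7:6730370-6730669 on the minus strand, shown because the gene that rose and the gene that did not both start in it, held no TGCCGC or its reverse complement GCGGCA, the core hexamer of the imprint-keeping factor ZFP57. The windows of *Nnat* at chr2:157559828-157560127 on the plus strand and of *Nap1l5* at chr6:58907077-58907376 on the minus strand are given beside it, as called members with the hexamer in capitals.
Peg3: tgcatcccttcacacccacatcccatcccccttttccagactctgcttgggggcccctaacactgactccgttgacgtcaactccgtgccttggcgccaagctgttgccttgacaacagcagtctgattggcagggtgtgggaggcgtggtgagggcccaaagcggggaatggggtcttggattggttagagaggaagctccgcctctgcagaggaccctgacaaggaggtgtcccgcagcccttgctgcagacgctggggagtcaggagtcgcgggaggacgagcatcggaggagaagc
Nnat: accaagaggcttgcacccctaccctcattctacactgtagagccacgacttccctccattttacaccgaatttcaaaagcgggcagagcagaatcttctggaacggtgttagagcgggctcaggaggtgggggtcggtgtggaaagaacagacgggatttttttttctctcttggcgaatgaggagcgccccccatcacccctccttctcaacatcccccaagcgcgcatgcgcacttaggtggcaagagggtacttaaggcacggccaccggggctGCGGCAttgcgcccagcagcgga
Nap1l5: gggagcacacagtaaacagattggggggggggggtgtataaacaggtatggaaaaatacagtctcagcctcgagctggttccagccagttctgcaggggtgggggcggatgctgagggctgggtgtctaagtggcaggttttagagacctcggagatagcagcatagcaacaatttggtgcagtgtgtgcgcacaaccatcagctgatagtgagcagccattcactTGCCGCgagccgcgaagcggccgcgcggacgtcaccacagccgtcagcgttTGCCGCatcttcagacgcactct
The hexamer occurred on either strand in 10 of the 33 members found in the table (30.3%), in 20% of 13759 tested genes and in 13.1% of all 27025 genes of the table. Of the 5 called members, *Nap1l5* held 2 matches, *Nnat* 1, and *Peg3*, *Blcap* and *Airn* 0. These matches describe the letters of the windows only.

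*Nap1l5*, an intronless relative of the nucleosome assembly proteins, had 161, 163 and 149 CPM in shCtrl and 212, 243 and 221 CPM in sh*Pla2g4e*. All 3 knockdown libraries were above all 3 controls (log2 fold change 0.52, SE 0.08, edgeR adjusted p = 0.00049). It lies at chr6:58882218-58884061 on the minus strand of GRCm39, in an intron of *Herc3*, a HECT-type ubiquitin ligase gene from the list of other imprinted genes. *Herc3* went the other way, from 217, 202 and 162 CPM in shCtrl to 158, 131 and 123 CPM in sh*Pla2g4e* (log2 fold change −0.50, SE 0.11, edgeR adjusted p = 0.00739), and its call was lost with 1 library left out (adjusted p of up to 0.0484). The log2 ratio of *Nap1l5* to *Herc3* reads therefore moved from −0.29 ± 0.155 to 0.72 ± 0.258.

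*Airn*, the long non-coding RNA that silences *Igf2r* in cis on the paternal chromosome in many tissues, was low. It had 3.25, 4.83 and 3.69 CPM in shCtrl (67 to 96 reads) and 8.57, 8.0 and 6.57 CPM in sh*Pla2g4e* (115 to 205 reads). The groups did not overlap (log2 fold change 0.98, SE 0.20, edgeR adjusted p = 0.00359). The call was lost without shCtrl replicate 1 or 3 or sh*Pla2g4e* replicate 1 or 2, with an adjusted p of up to 0.0223. It was kept without shCtrl replicate 2 or sh*Pla2g4e* replicate 3. *Igf2r*, the receptor that carries insulin-like growth factor 2 to lysosomes, had 112, 98.0 and 93.5 CPM in shCtrl and 110, 118 and 96.2 CPM in sh*Pla2g4e*, and these overlapped (log2 fold change 0.10, SE 0.09, edgeR adjusted p = 0.585). The log2 ratio of *Airn* to *Igf2r* reads was −4.71 ± 0.383 in shCtrl and −3.81 ± 0.114 in sh*Pla2g4e*.

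**Figure D2:**
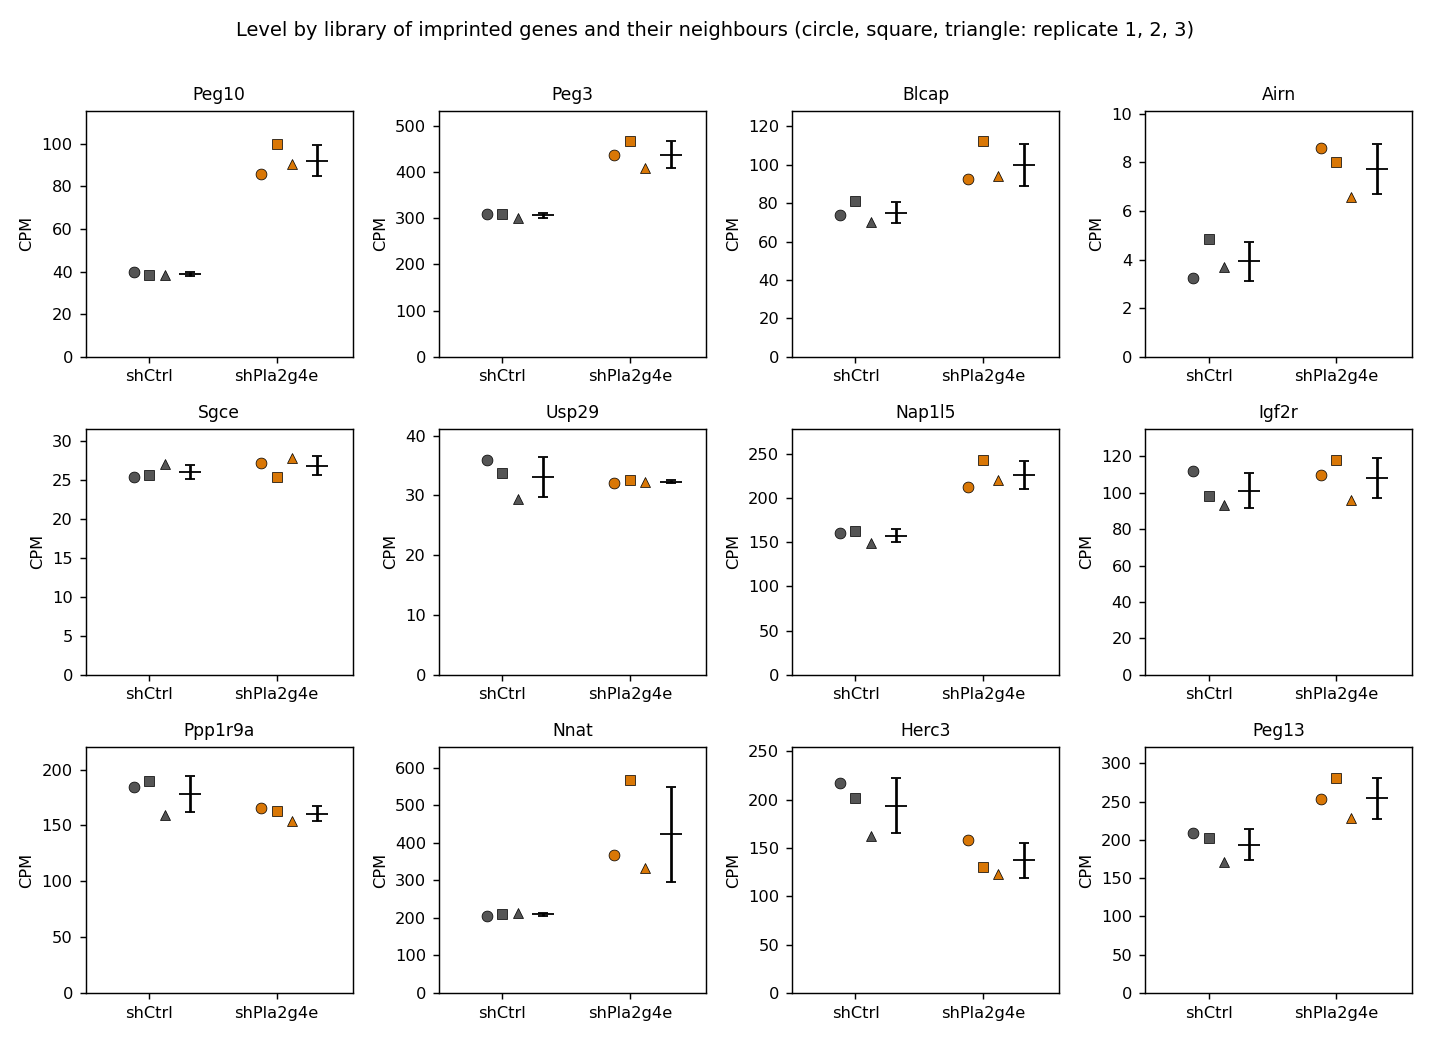
CPM in each library (linear axes from 0) of imprinted genes and genes next to them or around them, with the mean and SD of 3 libraries at the right of each group. *Peg10*, *Peg3*, *Nnat*, *Blcap*, *Nap1l5*, *Airn* and *Peg13* had no overlap between groups and were higher in sh*Pla2g4e*, *Herc3* was lower without overlap, and *Sgce*, *Usp29*, *Igf2r* and *Ppp1r9a* overlapped.

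Ratios between neighbours were computed for 8 pairs other than *Peg10* and *Sgce*, chosen after the values of the genes had been seen. For *Peg3* over *Usp29*, *Nnat* over *Blcap*, *Airn* over *Igf2r*, *Nap1l5* over *Herc3*, *Peg13* over *Trappc9*, *Dlk1* over *Meg3* and *Mkrn3* over *Ndn*, every sh*Pla2g4e* library had a higher ratio than every shCtrl library. In each of these 7 pairs the exact two-sided permutation test gave p = 0.1, the smallest that 3 against 3 libraries allow (adjusted p = 0.114 over the 8 pairs), so none could pass a threshold of 0.05. *Zrsr1* over *Commd1*, a splicing factor retrogene and its host, overlapped (log2 ratios 2.72 ± 0.447 and 2.71 ± 0.344, exact permutation p = 1).

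Replicate numbers run from 1 to 3 in each group, and same-numbered libraries deviated together. The labels do not state a pairing, so the block rests on an assumption. With the replicate number as a block, 12 of the 38 members were called up (31.6%, where 6.50% of all genes were) and 1 down (where 9.02% of all genes were). In this blocked fit edgeR moved the spread of each gene strongly towards a common value (63.1 prior degrees of freedom, against 11.7 without the block). With bias-adjusted deviances, a later form of the same fit with 13.4 prior degrees of freedom, 10 members were called up, where 4.67% of all genes were, and 1 down, where 7.22% were. The members named in the next paragraphs were described because the block changed their call, which is outside the rule that chose the other named genes.

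*Peg13*, a non-coding RNA inside *Trappc9*, had 209, 202 and 171 CPM in shCtrl and 254, 281 and 228 CPM in sh*Pla2g4e*. The groups did not overlap, and the gene missed the threshold in the unblocked edgeR fit only narrowly (log2 fold change 0.39, SE 0.10, edgeR adjusted p = 0.0127, with the block 1.16e-06 and with bias-adjusted deviances 0.000276). Limma after voom and DESeq2, without a block, called it (adjusted p = 0.00897 and 0.00193). *Trappc9*, a subunit of a vesicle tethering complex that is maternally expressed in brain, had 83.1, 82.0 and 70.6 CPM in shCtrl and 67.4, 78.0 and 67.7 CPM in sh*Pla2g4e* (log2 fold change −0.15, SE 0.09, edgeR adjusted p = 0.35). Its groups overlapped.

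*Zdbf2*, a paternally expressed gene with a role in postnatal growth, had 95.2, 85.9 and 70.9 CPM in shCtrl and 118, 121 and 96.2 CPM in sh*Pla2g4e* (log2 fold change 0.41, edgeR adjusted p = 0.0201, and 0.000331 with block and bias-adjusted deviances). *Rasgrf1*, a calcium-responsive exchange factor for Ras, had 187, 157 and 154 CPM in shCtrl and 215, 233 and 187 CPM in sh*Pla2g4e* (log2 fold change 0.35, edgeR adjusted p = 0.0264, and 0.00236 with both). *Plagl1*, a zinc finger transcription factor, had 116, 132 and 129 CPM in shCtrl and 146, 174 and 147 CPM in sh*Pla2g4e* (log2 fold change 0.30, edgeR adjusted p = 0.0332, and 0.00298 with both). *Zdbf2* and *Plagl1* did not overlap between groups, whereas the lowest knockdown library of *Rasgrf1* was level with its highest control library. DESeq2, without a block, called *Zdbf2* and *Rasgrf1* (adjusted p = 0.00703 and 0.00932) but not *Plagl1* (0.014). Limma after voom called none of them.

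*Grb10*, an adaptor that dampens insulin and growth factor receptor signals, had 82.0, 78.6 and 66.5 CPM in shCtrl and 96.1, 103 and 73.9 CPM in sh*Pla2g4e*. *Dlk1*, a membrane ligand related to those of Notch, had 9.94, 8.86 and 12.9 CPM in shCtrl and 12.6, 18 and 13.6 CPM in sh*Pla2g4e*. Both overlapped between groups, and both were called with the block (edgeR adjusted p = 0.00436 and 0.00505) but neither with block and bias-adjusted deviances (adjusted p = 0.0145 and 0.0371) nor in the unblocked fit (log2 fold change 0.27, adjusted p = 0.147, and 0.48, adjusted p = 0.0779).

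*H19*, a maternally expressed non-coding RNA of embryonic tissues and the host of a microRNA, had the highest fitted fold change of all tested members, and it came from 1 library. It had 9.65, 7.60 and 4.31 CPM in shCtrl and 16.6, 84.2 and 5.77 CPM in sh*Pla2g4e*. sh*Pla2g4e* replicate 2 stood far above the rest (1822 reads), and replicate 3 lay inside the range of the controls. The log2 fold change was 2.32 (SE 0.62, edgeR adjusted p = 0.0212) and fell to 0.66 without that library (adjusted p = 0.272). With the block the adjusted p was 6.42e-10, and with block and bias-adjusted deviances 0.000615, although a single pair of libraries carried most of the difference.

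Many members had their highest level in sh*Pla2g4e* replicate 2. Of the 38 tested members other than *Peg10*, 15 did (39.5%, where 20.3% of all genes did), namely *Peg3*, *Nap1l5*, *Nnat*, *Blcap*, *Dlk1*, *H19*, *Plagl1*, *Grb10*, *Zdbf2*, *Rasgrf1*, *Peg13*, *Igf2r*, *Gnas*, *Cdkn1c* and *Asb4*, and *Peg10* itself did too. Markers of other cell types were summed to describe that library. The summed CPM of 7 fibroblast and mural markers was 37.0 there, within the 29.4 to 70.6 of the shCtrl libraries. *Acta2*, a smooth muscle actin, gave 14.7 CPM of that sum, its largest part, and ranged from 6.79 to 47.4 CPM over the 6 libraries. The collagen genes *Col1a1* (5.09 CPM) and *Col1a2* (3.65 CPM) lay above every control library (1.36 to 3.22 and 0.97 to 1.71 CPM), whereas the pericyte genes *Pdgfrb* (9.43 CPM) and *Rgs5* (2.31 CPM) lay below every control (15.5 to 18.8 and 2.57 to 3.37 CPM). Both collagen genes were higher still in sh*Pla2g4e* replicate 3 (6.51 and 3.89 CPM), where *H19* had 5.77 CPM. The summed CPM of 6 proliferating progenitor markers was 169.6 in replicate 2, within 146.7 to 182.4. That sum pools genes whose fitted changes between the groups had different signs, such as *Top2a* and *Nes*, given below. The 5 choroid plexus markers summed to 6.29 CPM, within 4.17 to 9.63. Of these, *Folr1* (1.66 CPM) lay above every control (0.30 to 1.07 CPM). *Otx2* (1.20 CPM) and *Kl* (0.185 CPM) lay below every control (1.46 to 2.09 and 0.29 to 0.62 CPM). *Ttr* (2.68 CPM) and *Aqp1* (0.555 CPM) lay within their control ranges. The 4 endothelial markers summed to 8.92 CPM, above the 2.62 to 5.33 of the controls. Of that sum 7.54 CPM came from *Kdr*, a receptor of vascular growth factor (0.97 to 3.86 CPM in the controls). *Pecam1* (0.925 CPM) and *Flt1* (0.462 CPM) lay within their control ranges, and *Cldn5* was at 0 in every library. The 7 oligodendrocyte lineage markers were highest there too, at 581 CPM. The part of these cell types in the level of *H19* was not tested.

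**Figure D3:**
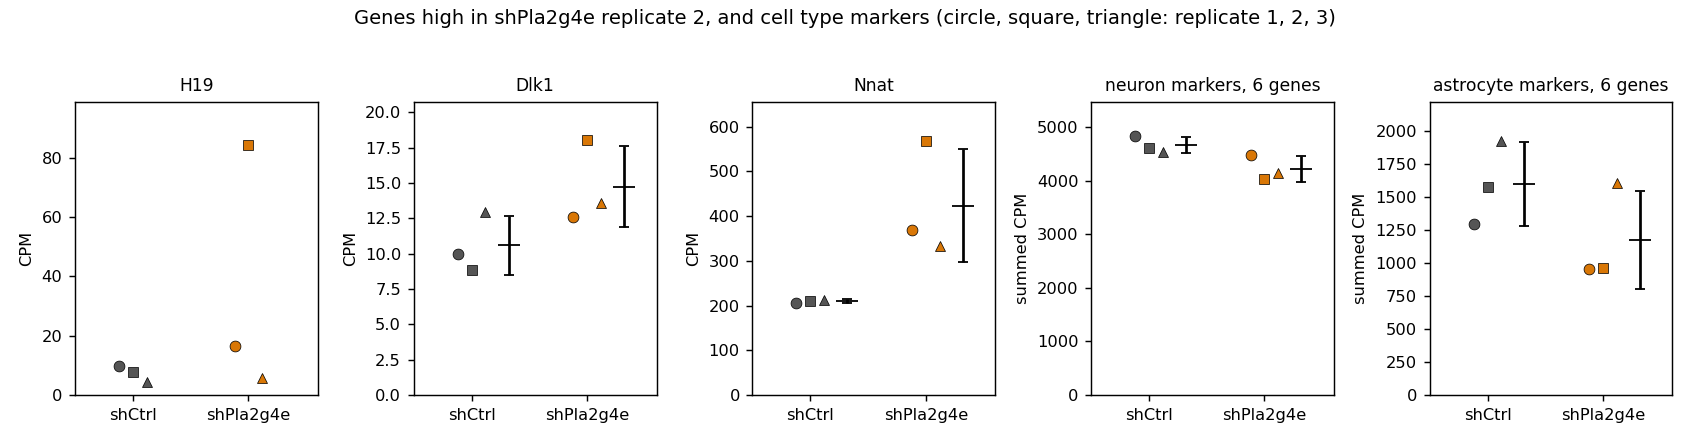
CPM in each library of *H19*, *Dlk1* and *Nnat*, and summed CPM of 6 neuron and of 6 astrocyte markers (linear axes from 0, mean and SD at the right of each group except for *H19*). *H19* reached 84.2 CPM in sh*Pla2g4e* replicate 2 (square) and 16.6 CPM or less in the other libraries, and astrocyte markers were lowest in sh*Pla2g4e* replicates 1 and 2.

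Some neuron, astrocyte and progenitor markers were called, and their part in the imprinted genes was not tested. Over all genes tested, edgeR called 2.48% up and 4.0% down, or 6.50% and 9.02% with the block. At an unadjusted p of 0.05, 12.8% of all genes were higher and 12.9% lower. Neuron markers summed to 4540 to 4843 CPM in shCtrl and 4037 to 4485 CPM in sh*Pla2g4e* (of 6 markers 1 was called up and 2 down, with 2 up and 3 down at an unadjusted p of 0.05, and 2 up and 2 down with the block), and none was at 0. Their median log2 fold change was −0.17. The called ones were *Nefl*, up (log2 fold change 0.48, edgeR adjusted p = 0.00142), and *Map2* and *Rbfox3*, down (−0.45, adjusted p = 0.00123, and −0.41, adjusted p = 0.00477). Their groups did not overlap, and each call was lost with 1 library left out. The one added by the block was *Snap25*, of the synaptic fusion machinery (log2 fold change 0.26, edgeR adjusted p = 0.0471 without and 0.000353 with the block, 0.0031 with block and bias-adjusted deviances). Astrocyte markers summed to 1298 to 1929 CPM in shCtrl and 959 to 1604 CPM in sh*Pla2g4e* (of 6 markers 0 were called up and 2 down by edgeR, with 1 up and 3 down at an unadjusted p of 0.05, and 1 up and 4 down with the block). The median log2 fold change of the astrocyte markers was −0.42, with *Aqp4*, the water channel, at 44.1% of its control level (log2 fold change −1.19, edgeR adjusted p = 0.000853) and *Gja1*, connexin 43, at 63.3% (adjusted p = 0.00242). The first call was lost in DESeq2 (adjusted p = 0.0124) and the second with 1 library left out (edgeR adjusted p = 0.0161). *S100b* was at 217.5% of control, without overlap between groups (edgeR adjusted p = 0.0211). Of the 6 markers of proliferating progenitors, 0 were called up and 1 down, with 0 up and 3 down at an unadjusted p of 0.05 and 2 down with the block, and their median was −0.56. *Top2a*, a topoisomerase of dividing cells, was the called one (50.3% of control, log2 fold change −1.0, edgeR adjusted p = 0.00613, and up to 0.0552 with 1 library left out), *Mki67* was at 46.5% (adjusted p = 0.0148), and *Nes* and *Pax6* had log2 fold changes of 0.15 and 0.004. Microglia markers summed to 2.59 to 7.73 CPM and oligodendrocyte lineage markers to 482 to 581 CPM over all 6 libraries. No marker of these, of endothelial, choroid plexus or of fibroblast and mural cells was called by edgeR without the block, limma after voom or DESeq2. With the block, *Col1a1* (edgeR adjusted p = 0.000456), *Col1a2* (0.00824), *Kdr* (8.91e-05) and *Ttr* (0.000453), a choroid plexus marker, were called up, and *Olig2* (0.000528), of the oligodendrocyte lineage, was called down. With block and bias-adjusted deviances *Col1a1*, *Kdr* and *Olig2* were still called (adjusted p = 0.0091, 0.00829 and 0.00459), and *Col1a2* and *Ttr* were not (0.0174 and 0.0205). At an unadjusted p of 0.05, 2 fibroblast and mural, 1 endothelial, 1 choroid plexus and 1 microglia marker were higher, and 2 microglia and 1 oligodendrocyte lineage marker lower. Neurons and, after them, astrocytes were thus the cell types whose markers were most abundant, as the label of the cultures says for neurons.

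In the *Dlk1*-*Meg3* region, the maternally expressed non-coding RNAs overlapped between groups. *Meg3*, the most abundant member, had 6672, 7328 and 8061 CPM in shCtrl and 7491, 6833 and 8191 CPM in sh*Pla2g4e* (log2 fold change 0.03, SE 0.09, edgeR adjusted p = 0.896). *Rian* and *Mirg*, which carry small nucleolar RNAs and microRNAs, were not called either, with a log2 fold change of −0.10 for *Rian* and 30.8 to 37.5 CPM over all libraries for *Mirg*. The 4 genes of the region thus held *Dlk1* at 0.48 and 3 maternally expressed RNAs between −0.10 and 0.03.

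The *Snrpn*-*Ube3a* region, the counterpart of the human Prader-Willi and Angelman region, held the only member that the block called down. *Snrpn*, a core protein of neuronal spliceosomes, had 251, 252 and 255 CPM in shCtrl and 217, 198 and 224 CPM in sh*Pla2g4e*, without overlap (log2 fold change −0.25, SE 0.08, edgeR adjusted p = 0.0465, with the block 0.00166 and with bias-adjusted deviances 0.00755). Its reads are uncertain, because 27.3% of its exon bases lie in *Snurf* and other genes of the same strand and reads on overlapping genes were dropped by the counting. *Ndn*, the growth-restraining protein necdin, was 195, 196 and 189 CPM in shCtrl and 184, 171 and 174 CPM in sh*Pla2g4e*, without overlap but not called (log2 fold change −0.13, edgeR adjusted p = 0.29). *Mkrn3*, a ubiquitin ligase that restrains puberty, lay higher in every knockdown library and was not called either (log2 fold change 0.25, edgeR adjusted p = 0.142). *Ube3a*, the maternally expressed ubiquitin ligase of Angelman syndrome, whose substrates include the PEG10 protein, had 137, 140 and 121 CPM in shCtrl and 137, 129 and 124 CPM in sh*Pla2g4e*, with overlapping groups (log2 fold change −0.03, SE 0.08, edgeR adjusted p = 0.89). For *Ube3a*, 27.3% of exon bases overlap genes of the other strand, among them *Snhg14*. *Magel2*, a partner of ubiquitin ligases, had a log2 fold change of −0.24 at 2.76 to 4.35 CPM, and *Peg12* had 2.47, 1.81 and 1.73 CPM in shCtrl and 2.76, 2.59 and 0.63 CPM in sh*Pla2g4e*. Neither was called.

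In the *Kcnq1ot1* region, *Kcnq1ot1*, the antisense RNA that silences its neighbours on the paternal chromosome, had 64.7, 88.7 and 74.7 CPM in shCtrl and 84.4, 79.6 and 83.9 CPM in sh*Pla2g4e*, and *Cdkn1c*, the cell cycle inhibitor p57, lay between 1.09 and 3.38 CPM over all libraries. Neither was called, and the log2 fold change of *Kcnq1ot1* was 0.12. The remaining tested members that were not called are *Mest*, *Gnas*, *Nespas*, *Ddc*, *Impact*, *Slc38a4*, *Inpp5f*, *Zrsr1* and *Commd1*. *Impact*, an inhibitor of the amino acid sensor GCN2, was higher in every knockdown library (log2 fold change 0.18, edgeR adjusted p = 0.157), and *Slc38a4*, an amino acid transporter, was lower in each, at 0.39, 0.91 and 0.36 CPM in shCtrl and 0.08, 0.28 and 0.34 CPM in sh*Pla2g4e* (edgeR adjusted p = 0.319). *Mest*, an alpha/beta hydrolase gene of which 23.1% of the exon bases overlap *Copg2* on the other strand, had 37.8, 47.8 and 34.9 CPM in shCtrl and 41.7, 50.4 and 52.7 CPM in sh*Pla2g4e*. *Gnas*, the gene of the stimulatory G protein alpha subunit, lay between 49.9 and 73.0 CPM, and *Inpp5f*, *Zrsr1* and *Commd1* lay at 177 to 210, 43.3 to 54.5 and 5.92 to 9.54 CPM. *Nespas*, the antisense RNA at *Gnas*, had 0.68, 0.25 and 0.27 CPM in shCtrl and 0.29, 0.60 and 0.46 CPM in sh*Pla2g4e*, and *Ddc*, the aromatic amino acid decarboxylase, 0.19, 0.30 and 0.53 against 0.75, 0.69 and 0.51 CPM. These 7 genes overlapped between the groups, and over all 33 members not called the adjusted p ran from 0.0127 to 0.986.

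Paternally and maternally expressed members were compared as a description, with alleles taken from textbook knowledge and not measured in these cells. Of the 24 tested paternally expressed genes other than *Peg10*, 18 had a log2 fold change above 0 and the median was 0.21. Of these 24, 4 were called up (16.7%, where 2.48% of all genes were). With the block 9 were called up and 1 down, where 6.50% and 9.02% of all genes were. Of the 12 tested maternally expressed genes, 7 were above 0, the median was 0.03, and 1 was called up (8.33%), or 2 with the block. Over all genes tested the median was 0.03 and 53.5% were above 0. Among genes with a mean log2 CPM of 3 or more, the medians were 0.26 for 18 paternally and −0.03 for 9 maternally expressed genes, beside −0.02 over all 10958 such genes, of which 45.5% were above 0. *Nnat* (1.01), *Airn* (0.98) and *Ddc* (0.92, edgeR adjusted p = 0.365), followed by *Nap1l5* and *Peg3*, stood at the upper end of the paternal list and *Snrpn*, *Magel2* and *Slc38a4* at the lower end. The fitted values thus did not share a single sign. At an adjusted p of 0.01, however, *Magel2* and *Slc38a4* were called neither with nor without the block, and *Snrpn* only with it. *Slc38a4* had 2 to 18 reads per library.

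Groups that did not overlap were counted as well. Among the 38 members 10 were higher in every sh*Pla2g4e* library than in every shCtrl library (26.3%, where 15.5% of all genes were) and 3 were lower (where 14.6% of all genes were). Of the 10, 9 were paternally expressed, and *Blcap* was the maternally expressed one. All 3 that were lower (*Snrpn*, *Ndn* and *Slc38a4*) were paternally expressed.

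The level of the members, compared per kilobase of exon, spanned more than 3 orders of magnitude in shCtrl. *Meg3* stood first at 407 ± 38.4 CPM per kb, followed by *Snrpn* (117 ± 0.934), *Nnat* (115 ± 2.09), *Nap1l5* (85.3 ± 4.19) and *Ndn* (52.3 ± 0.969). The ranges of *Snrpn* and *Nnat* over the 3 libraries overlapped, and the other neighbours among these 5 lay apart. Over the whole order the ranges of 25 neighbouring pairs overlapped and those of 13 did not. *Inpp5f*, a phosphoinositide phosphatase (23.2 ± 0.253), lay just above *Peg3* (22.5 ± 0.348), and *Sgce* (2.45 ± 0.0879) above *Dlk1* (1.87 ± 0.372), without overlap, whereas *Dlk1* and *Usp29* (1.83 ± 0.182) overlapped. *Peg10* was in the middle of the order at 5.81 ± 0.138 CPM per kb. At the lower end, *Peg12* had 0.76 ± 0.154 CPM per kb, and *Slc38a4* (0.129 ± 0.0725), *Nespas* (0.127 ± 0.0772), *Asb4* (0.104 ± 0.0308) and *Ddc* (0.0769 ± 0.0388), overlapped from each one to the next. These 4 genes had 2 to 18 reads per library. The called members lay between *Nnat* near the top and *Airn* (0.848 ± 0.177) near the bottom.

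**Figure D4:**
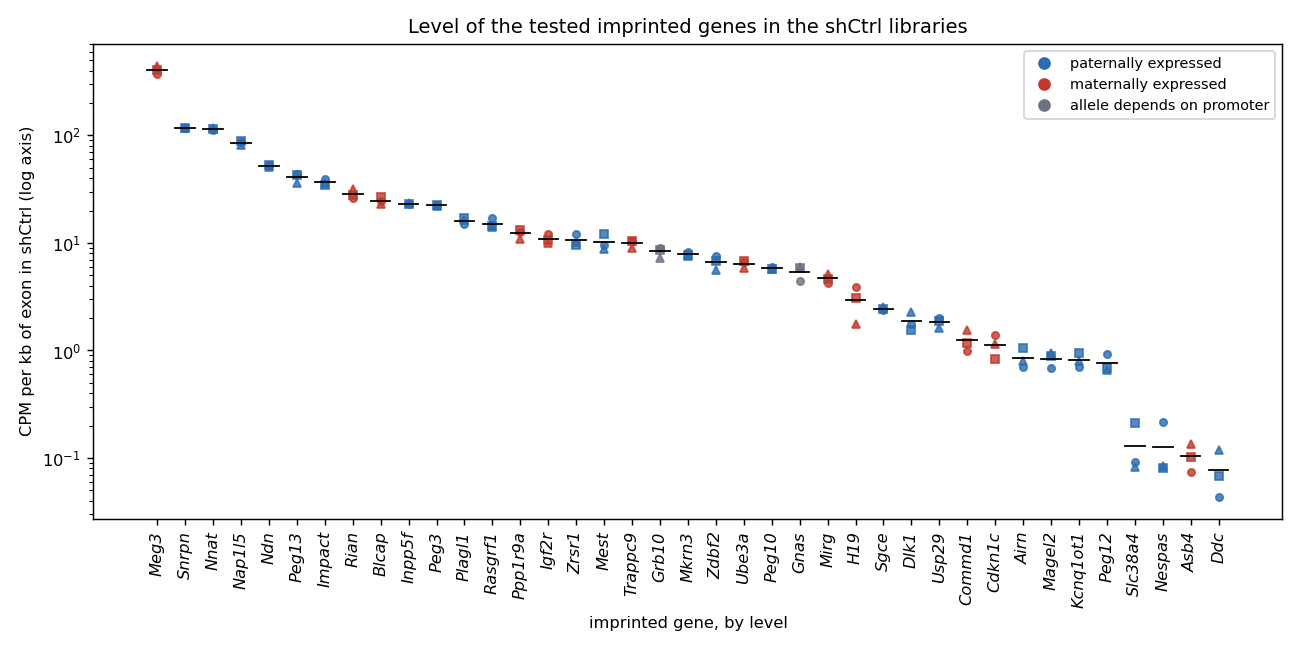
Level in the 3 shCtrl libraries (CPM per kb of exon, log axis; circle, square and triangle are replicates 1, 2 and 3, the black line is their mean) of the 39 tested imprinted genes in descending order. *Meg3* stands above all others at 407 CPM per kb, *Peg10* lies in the middle at 5.81, and 4 genes lie under 0.2.

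Other genes known or proposed to be imprinted, 50 in number with 44 tested, gave 1 call up and 2 down, where 2.48% and 4.0% of all genes were called. At an unadjusted p of 0.05, 3 were higher and 9 lower, where 12.8% and 12.9% of all genes were. With the block 2 were called up and 7 down, where 6.50% and 9.02% of all genes were. *Dhcr7*, the last enzyme of one route of cholesterol synthesis, rose (88.7, 74.6 and 71.9 CPM in shCtrl against 110, 126 and 99.98 CPM in sh*Pla2g4e*, log2 fold change 0.52, edgeR adjusted p = 0.00279), a call that was lost with 1 library left out (adjusted p = 0.027 without shCtrl replicate 2). *Slc22a3*, an organic cation transporter gene next to *Igf2r* that *Airn* silences in the placenta, fell from 10.1, 7.75 and 6.93 CPM to 3.01, 2.77 and 1.37 CPM (log2 fold change −1.77, SE 0.25, edgeR adjusted p = 0.000241). *Herc3*, given above, was the other one down, and the median over the 44 was −0.06.

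Of 22 genes that set, keep or read imprints, 21 were tested, 0 were called up and 1 was called down by edgeR, limma after voom and DESeq2 alike, with 0 up and 8 down at an unadjusted p of 0.05 and 0 up and 4 down with the block, where 12.9% and 9.02% of all genes were down. *Uhrf1*, which brings DNMT1 to newly copied DNA and is expressed by dividing cells, was that gene, at 5.09, 6.34 and 7.77 CPM in shCtrl and 2.43, 2.64 and 2.80 CPM in sh*Pla2g4e* (log2 fold change −1.29, SE 0.22, edgeR adjusted p = 0.000824). The list's median was −0.14. DNA methylation was not measured in these libraries.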

How the data were processed

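The authors aligned the reads with STAR 2.7.0d after FastQC 0.11.8, counted them on exons with featureCounts 1.6.0 and deposited raw read counts per gene. The methods name mm10 and GENCODE M18, whereas the file headers carry GENCODE vM28 and GRCm39. Strand and read pairs were not used by the counting, and multi-mapping reads and reads on overlapping genes were dropped, which lowers genes that share sequence. Symbols matched for 52081 of 55357 gene IDs. The RNA-seq of other tissues was not analysed here.

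From the counts, genes with 6 or more reads in at least 1 library were tested with edgeR 4.0.16 in R 4.3.3 (TMM, estimateDisp, glmQLFit, glmQLFTest, Benjamini-Hochberg, threshold 0.01), where the study used limma after voom. SEs come from the F statistic. Alternatives were limma 3.58.1 after voom, DESeq2 1.42.0, its size factors, library size alone, no filter, 10 reads in every library, a threshold of 0.05, a replicate block and leaving out each library. Bias-adjusted deviances were added after seeing the data. DESeq2 adjusted p-values given as NA were left without a call. Same-numbered libraries deviated from their group means together (r = 0.392, 0.189 and 0.461, against −0.393 to 0.108 for other pairs, over 10908 genes). Deviations from a group mean cancel within the group, so higher values for some pairs force lower values for others. These correlations therefore cannot show that the libraries were paired, and the labels do not say so. Taking the numbers as pairs in the block is an assumption. No 2 libraries were alike within sampling noise (chi-square per gene of 5.65 or more).

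The members and lists were chosen with earlier results of these data known. Alleles and functions are textbook knowledge. Values by library are given for *Peg10* and its region, called members, at least 1 member of each region with 3 or more, the 5 highest and 5 lowest levels among those tested, and at most 3 called genes of a list. *Usp29*, *Igf2r* and *Trappc9* were added after their values were seen, as partners of other genes, and *Zdbf2*, *Rasgrf1*, *Plagl1*, *Grb10*, *Dlk1*, *H19*, *Peg13*, *Impact*, *Mkrn3*, *Rian*, *Magel2* and *Mest*, and from lists *Dync1i1*, *Casd1*, *Rtl6*, *Mki67*, *Nes*, *Pax6*, *S100b*, *Snap25*, *Ttr*, *Folr1*, *Otx2*, *Kl*, *Aqp1*, *Olig2*, *Kdr*, *Pecam1*, *Flt1*, *Pdgfrb*, *Rgs5*, *Col1a1* and *Col1a2*, for their values. The 3′UTRs came from GENCODE vM21 (GRCm38), and promoters from RefSeq, whose table held 33 of the 41 members.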

Additional observations from a re-analysis of the deposited data

How the results depend on the processing

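The 5 members called up without *Peg10* became 8 with library size alone, 8 with DESeq2, 10 without a low-count filter, 10 at an adjusted p of 0.05, 12 with the replicate block and 10 with the replicate block and bias-adjusted deviances, and 3 to 9 with 1 library left out (3 without shCtrl replicate 1 or 3 or sh*Pla2g4e* replicate 1 or 2, and 9 without sh*Pla2g4e* replicate 3). The calls over all genes moved too. Of 21876 genes, 543 were called up in the unblocked fit, 796 with library size alone and 687 with DESeq2. It was 1422 with the block, 1022 with block and bias-adjusted deviances, and 989 of 32161 genes without the filter. With 1 library left out it was 246 to 388, or 681 without sh*Pla2g4e* replicate 3. The 0 called down became 1 with the replicate block, 1 with block and bias-adjusted deviances and 1 at an adjusted p of 0.05. Without the filter the prior degrees of freedom were infinite, so that a gene's own spread had no weight. Scaling by library size alone moved the paternal median from 0.21 to 0.29 and the maternal median from 0.03 to 0.10, as it moved the median of all genes from 0.03 to 0.10. Near 0, the log2 fold change of *Ube3a* turned to 0.0477 and that of *Usp29* to 0.0438 with library size alone. With 1 library left out, *Ube3a* ran from −0.0896 to 0.0126, *Usp29* from −0.11 to 0.032 and *Meg3* from −0.0387 to 0.0998. The cause of these changes was not tested. *Peg3*, *Nnat* and *Nap1l5* kept direction and side of the threshold in all 15 alternatives, while *Airn* and *Blcap* lost their calls with some libraries left out.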
